A study of Mus musculus with 66 samples.

Results

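The chromatin regulators Kmt2c, Setd5, Ash1l, Kdm6b and Chd8, the DNA methyltransferase Dnmt3a, the methyl-CpG binding domain protein Mbd5, the Mediator subunit Med13l and the transcription factor Tbr1 were each depleted with a short hairpin RNA (shRNA) in cultured mouse neurons. The mRNA of each was measured in the cultures where any of the other 8 was depleted. The members are these 9 of the 30084 gene symbols of the count table, chosen by name because they are the targets. They give 72 effects of a knockdown on a member it does not target, and the effect of each shRNA on its own target is not described beyond a check. The neurons came from wildtype (WT) mouse embryos of embryonic stage E16.5, sorted into male and female cultures, and the strain is not stated. All groups share the WT genotype, the culture and its length. They differ in the lentivirus, which carried an shRNA against a target, a nontargeting shRNA, or was left out (no virus). Virus was washed off on day 6 and cells were lysed on day 10, and the protocol states doses that bring a target to about 50% of its level.

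Each of the 22 groups had 3 libraries. The protocol speaks of triplicate wells, and no label says whether replicates are separate cultures, litters or wells of 1 culture, so p-values measure only the spread between these libraries, which may be technical. The table calls the control hairpin Luc where the labels call it nontargeting. Of 66 libraries, 64 were used, with 13759741 to 66558546 counts each. The libraries labelled Setd5 shRNA male replicate 1 and Kdm6b shRNA male replicate 1 were left out because they go against their labels. The first held Setd5 at 101% of the nontargeting male mean and Kdm6b at 38.5%, and the other held Kdm6b at 66.7% and Setd5 at 32.3%. In the 18 shRNA groups that remain, each target was at 22.4% to 49.3% of its nontargeting level. In bulk RNA, fewer cells of a type and less RNA per cell cannot be told apart.

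Most of the members act on chromatin. Ash1l, Kmt2c and Setd5 belong to the SET domain proteins, the family of most histone lysine methyltransferases, and Kdm6b removes repressive methyl groups from a histone. Chd8 is an ATP-dependent chromatin remodeller, Dnmt3a a DNA methyltransferase that is active in maturing neurons, and Mbd5 a protein with a methyl-CpG binding domain. Med13l is a subunit of the kinase module of Mediator, the complex that links transcription factors to RNA polymerase II, and Tbr1 is a T-box transcription factor of cortical projection neurons. Variants in the human counterparts of all of them have been linked to autism or intellectual disability.

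Promoters are shown for 4 members, the pair Chd8 and Setd5 and the pair Kmt2c and Tbr1. RefSeq's table for GRCm38.p6 held promoters for 7 of the 9 members. Each sequence is the 250 bases before a start site, 5′ to 3′ on the gene's strand, and capitals mark CpG, the main dinucleotide that Dnmt3a methylates. The windows are chr14:52257761-52258010 (minus strand) for Chd8, chr6:113104685-113104934 (plus) for Setd5, chr5:25498784-25499033 (minus) for Kmt2c and chr2:61804203-61804452 (plus) for Tbr1.
Chd8: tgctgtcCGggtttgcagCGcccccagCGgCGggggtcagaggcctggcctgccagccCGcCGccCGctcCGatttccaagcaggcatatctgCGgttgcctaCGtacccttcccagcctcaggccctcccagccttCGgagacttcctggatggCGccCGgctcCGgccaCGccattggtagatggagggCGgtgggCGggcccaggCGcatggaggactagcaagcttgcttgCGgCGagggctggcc
Setd5: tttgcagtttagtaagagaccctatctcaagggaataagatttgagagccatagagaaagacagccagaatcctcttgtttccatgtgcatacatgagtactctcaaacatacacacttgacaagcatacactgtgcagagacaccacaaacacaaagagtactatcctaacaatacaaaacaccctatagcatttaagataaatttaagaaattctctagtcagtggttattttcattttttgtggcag
Kmt2c: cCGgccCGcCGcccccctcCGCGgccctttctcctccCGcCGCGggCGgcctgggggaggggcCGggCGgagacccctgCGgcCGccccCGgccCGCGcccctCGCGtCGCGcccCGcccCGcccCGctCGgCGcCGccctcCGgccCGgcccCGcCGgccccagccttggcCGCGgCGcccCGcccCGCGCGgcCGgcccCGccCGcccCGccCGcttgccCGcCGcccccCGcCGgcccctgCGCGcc
Tbr1: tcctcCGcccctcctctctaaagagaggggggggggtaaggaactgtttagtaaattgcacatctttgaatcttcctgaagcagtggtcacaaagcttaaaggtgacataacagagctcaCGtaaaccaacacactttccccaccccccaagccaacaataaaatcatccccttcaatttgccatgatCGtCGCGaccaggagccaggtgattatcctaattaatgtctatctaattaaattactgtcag

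The Kmt2c window held 48 CpG, the Chd8 window 20 and the Tbr1 window 5, against a median of 6 over the 32841 promoters of the table. The Setd5 window held 0. The Setd5 and Tbr1 windows lie inside the annotated genes, downstream of their first base. Their CpG counts therefore do not describe the sequence before the first base of either gene. The letters GGTGTGA, a T-box motif chosen after the data were seen, were searched on both strands and occurred in 3.33% of the table's promoters. They occurred in 0 of the 10 windows of the 7 members, the Kmt2c and Tbr1 windows included.

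The members are long genes. Summed over all annotated exons (GENCODE M21, GRCm38), 7 of them carried 14.84 to 20.29 kb, and only Kdm6b (6.95 kb) and Tbr1 (5.49 kb) were shorter. Kmt2c (chr5:25271798-25498783, minus strand) was the longest by exons and Mbd5 (chr2:48949508-49325405, plus) spanned the most genome, 375.9 kb. The other places are Ash1l chr3:88950622-89079375 (plus), Chd8 chr14:52198151-52257780 (minus), Dnmt3a chr12:3806007-3914443 (plus) and Kdm6b chr11:69398508-69413675 (minus). Med13l lies at chr5:118560679-118765438 (plus), Setd5 at chr6:113077365-113153435 (plus) and Tbr1 at chr2:61802930-61814114 (plus).

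Levels were compared as CPM (counts scaled to library size) per kb of exon in the 6 nontargeting libraries. Dnmt3a was highest at 22.4 ± 3.24 CPM per kb (SD, n = 6), and its lowest library lay above the highest library of every other member. Tbr1 followed at 9.86 ± 1.53, then Kdm6b at 7.6 ± 1.65, Ash1l at 7.46 ± 1.60, Setd5 at 7.23 ± 1.09 and Chd8 at 6.74 ± 0.929. Med13l was at 5.0 ± 0.511, Kmt2c at 4.29 ± 0.901 and Mbd5, the lowest, at 2.30 ± 0.401. From Tbr1 down to Kmt2c the ranges of neighbours overlapped, although the lowest Tbr1 library (8.69) lay above the highest of Setd5 (8.48) and of every member below it. The members were measured in the same libraries, and in each of the 6 Tbr1 was above Kdm6b, Chd8 above Med13l and Med13l above Kmt2c. The order of Kdm6b, Ash1l and Setd5 differed between libraries, while Mbd5 (1.80 to 2.93) lay below every library of Kmt2c (3.15 to 5.29). The no virus libraries gave the same order. All 9 passed the filter on low counts, with 456 to 22145 counts of a member per library outside the libraries of its own shRNA.

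With both sexes averaged, 3 of the 72 effects of a knockdown on another member passed the test (edgeR's quasi-likelihood test, Benjamini-Hochberg adjustment over all 16452 genes tested, adjusted p under 0.05), against 7.52% of all gene effects of the 9 knockdowns. All 3 were decreases: Setd5 after Chd8 shRNA, and Setd5 and Chd8 after Med13l shRNA. With the replicate number as a block 9 passed, 1 higher and 8 lower, against 17.1% of all gene effects. With a block only in females, where the numbers pair nearly all groups, 6 passed, against 14.5%. These shares lie near those of all genes, and nothing particular to the members is read from them. The 72 effects ran from −0.54 to 0.33 on the log2 scale. The 95% confidence interval of every effect lay within −1 and 1, and that of 55 effects within −0.5 and 0.5. Only 12 effects were above 0.25 in size, and 1 was above 0.5.

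**Figure D1:**
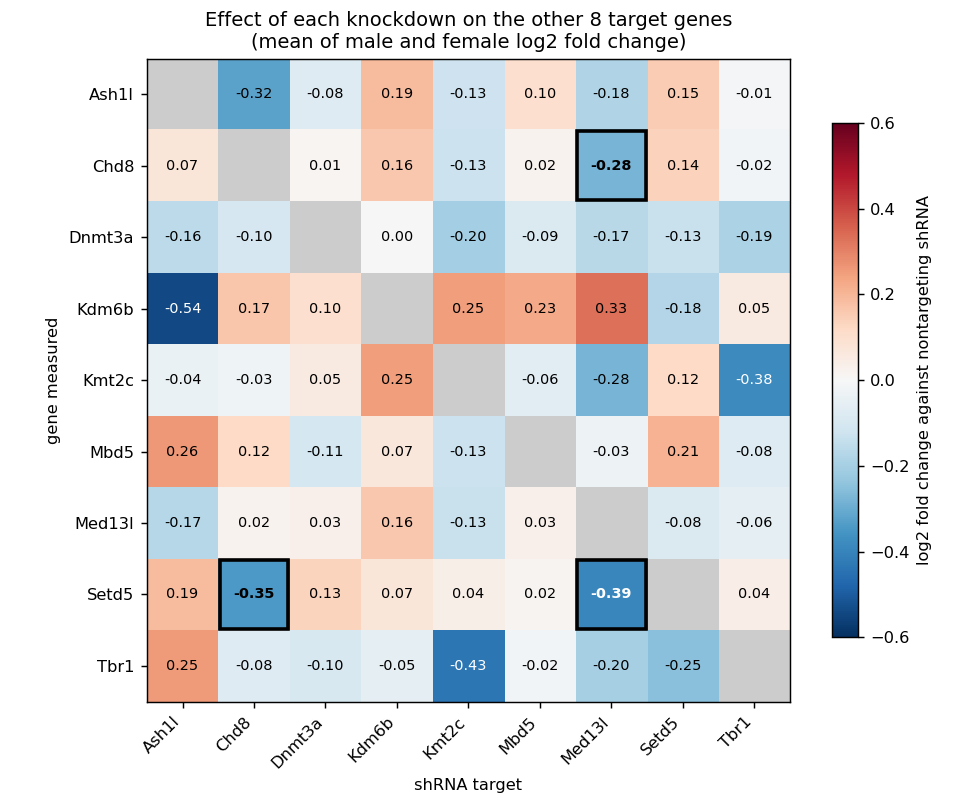
Averaged log2 fold change of each member (rows) after each shRNA (columns) against the nontargeting shRNA of the same sex, with the own target in grey. Black frames mark the 3 effects that passed, −0.35 and −0.39 for Setd5 and −0.28 for Chd8, and the colour scale runs from −0.6 to 0.6.

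Setd5 fell after Chd8 shRNA. In females Setd5 stood at 93.7, 115 and 92.4 CPM in replicates 1 to 3, against 98.5, 156 and 125 CPM with the nontargeting shRNA. In males it stood at 104, 105 and 116 CPM, against 133, 136 and 148 CPM. The male groups do not overlap, as for 38.4% of all genes in males after Chd8 shRNA. In females the highest Chd8 shRNA library lies among the control libraries. Each of the 6 libraries lay below the control library of its own number. The averaged log2 fold change was −0.35 (SE 0.127, 95% interval −0.60 to −0.09, edgeR adjusted p = 0.0413), or 0.786 of the control level. Chd8 shRNA changed 22.9% of all genes, and 12.4% of all genes fell, so 1 call among 8 members is near that background, and nothing is read from the count. Replicate numbers paired the Chd8 shRNA and control libraries, and with the number as a block the fall was −0.34 (edgeR adjusted p = 0.001), where 38.5% of all genes passed. The call was lost without filtering on low counts (edgeR adjusted p = 0.0654).

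Setd5 also fell after Med13l shRNA. Setd5 stood at 67.0, 121 and 99.4 CPM in females and at 106.6, 106.0 and 107.1 CPM in males, against the same controls as above. In males the 3 libraries lie close together and below every control, and in females only replicate 1 lies below all controls. After Med13l shRNA 41.6% of all genes did not overlap in males. Averaged over the sexes Setd5 was −0.39 on the log2 scale (SE 0.127, 95% interval −0.65 to −0.14, edgeR adjusted p = 0.0189), or 0.762 of the control level. It lay below the control library of its number in 6 of 6. In males the numbers do not pair these libraries, and any pairing would give the same. Med13l shRNA changed 24.7% of all genes, and 12% of all genes fell, beside 2 lower calls among 8 members.

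Chd8 fell after Med13l shRNA as well. It stood at 69.4, 96.6 and 88.9 CPM in females, against 88.8, 127 and 96.3 CPM in the controls. In males it stood at 100.4, 99.2 and 96.3 CPM, against 118, 115 and 123 CPM. The male groups do not overlap, as for 41.6% of all genes in males after Med13l shRNA, and the female ones do. The log2 fold change over both sexes was −0.28 (SE 0.080, 95% interval −0.44 to −0.12, edgeR adjusted p = 0.00773), or 0.824 of the control level. The reverse effect, Med13l after Chd8 shRNA, was 0.02 on the log2 scale and did not pass, and the difference between these effects was not tested. Kmt2c was at −0.28 after Med13l shRNA (SE 0.146, edgeR adjusted p = 0.162) without passing, at −0.47 in females and −0.09 in males.

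**Figure D2:**
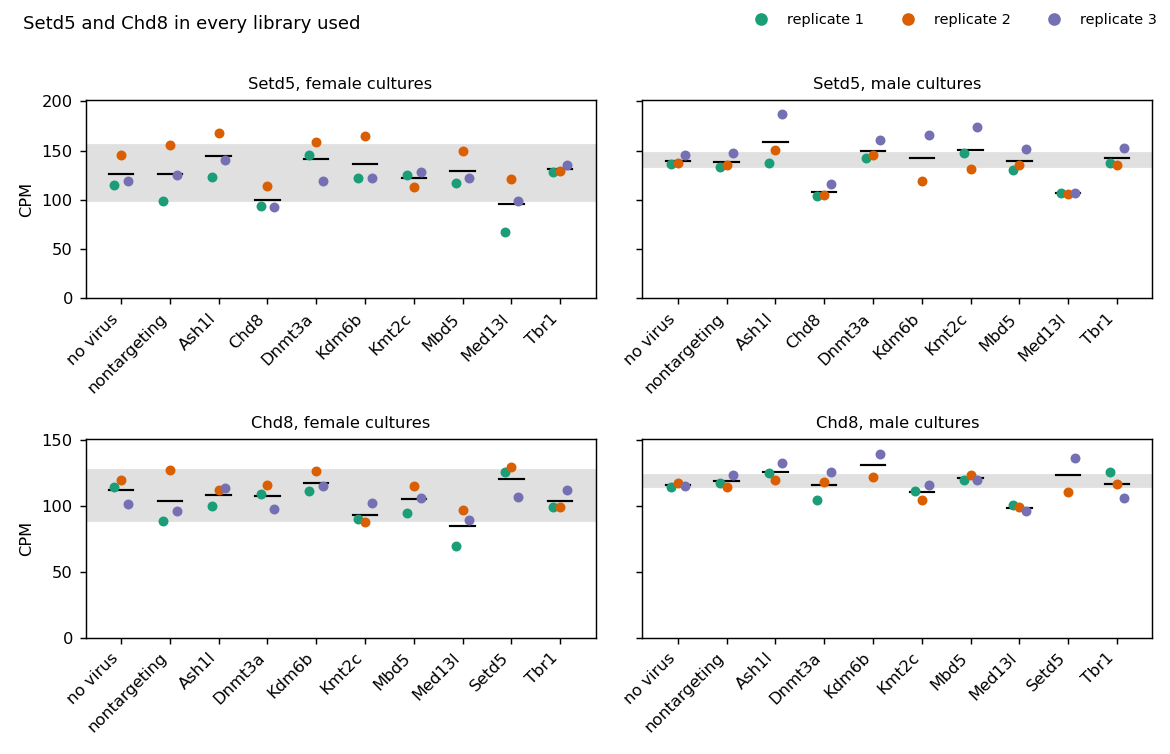
CPM of Setd5 (top) and Chd8 (bottom) in every library used, by condition, female left and male right. Points are libraries coloured by replicate number, bars are group means, and the grey band is the range of the nontargeting libraries. In males the Chd8 and Med13l shRNA libraries of Setd5 (104 to 116 CPM and 106.0 to 107.1 CPM) lie below the band.

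Other long genes fell with Chd8 and Setd5 after Med13l shRNA. The 413 other genes with at least 14.84 kb of exon, as long as the 7 long members, had a median averaged change of −0.28 after Med13l shRNA, and 30% of them were called lower, against a median of −0.0032 and 12.1% over all 16052 other genes with a length. After Chd8 shRNA the same long genes had a median of −0.06, with 14.8% called lower against 12.5% of all. In a fit chosen after the data were seen, each library's trend of level with exon length was removed, and 24% of all genes passed after Med13l shRNA and 25.1% after Chd8 shRNA. Chd8 after Med13l shRNA was then −0.02 (edgeR adjusted p = 0.787) and Setd5 after Med13l shRNA −0.12 (edgeR adjusted p = 0.229). Setd5 after Chd8 shRNA kept −0.28 (edgeR adjusted p = 0.00232). Of the 3 calls, only that of Setd5 after Chd8 shRNA passed in this fit. Mbd5, which had −0.03 after Med13l shRNA, was then at 0.27 (edgeR adjusted p = 0.0146).

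In the fit without a block, the calls depended on single libraries. Without nontargeting female replicate 2, which held the highest control values, 0 of the 72 averaged effects passed: Setd5 after Chd8 shRNA was −0.26 (edgeR adjusted p = 0.164), Setd5 after Med13l shRNA −0.30 (0.0996) and Chd8 after Med13l shRNA −0.19 (0.0761). Setd5 after Chd8 shRNA passed in only 4 of the 12 fits that leave out 1 library. It was also lost without nontargeting female replicate 3, nontargeting male replicates 2 or 3, Chd8 shRNA female replicates 1 or 3, or Chd8 shRNA male replicates 1 or 2. Setd5 after Med13l shRNA was also lost without Med13l shRNA female replicate 1 (edgeR adjusted p = 0.0963). With the 2 left-out libraries kept in the groups of their labels, only Chd8 after Med13l shRNA passed (−0.29, edgeR adjusted p = 0.00591), and Setd5 had −0.35 after Chd8 shRNA (0.222) and −0.40 after Med13l shRNA (0.144).

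Kdm6b, the histone demethylase, showed the largest of the 72 effects, after Ash1l shRNA. In females Kdm6b stood at 19.6, 48.1 and 26.0 CPM, against 31.4, 52.4 and 54.0 CPM in the controls. In males it stood at 36.3, 44.8 and 43.6 CPM, against 54.9, 65.2 and 59.3 CPM. The male groups do not overlap, as for 24.6% of all genes in males after Ash1l shRNA. Each of the 6 libraries lay below the control of its number. The averaged log2 fold change was −0.54 (SE 0.194, 95% interval −0.93 to −0.15), or 0.687 of the control level, and it missed the threshold (edgeR adjusted p = 0.0855) in a comparison where 6.63% of all genes passed. The numbers paired these libraries in females only. With a block in females alone, an alternative added after seeing the data, the fall was −0.55 (edgeR adjusted p = 0.008), where 15.7% of all genes passed. Removing the length trend left it at −0.55. Without Ash1l female replicate 2 it was −0.77 (edgeR adjusted p = 0.00696), without nontargeting female replicate 1 it was −0.65 (0.0406), and without Ash1l female replicate 1 it was −0.42 (0.305).

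Ash1l, a histone methyltransferase, was lower after Chd8 shRNA without passing the test. In females it stood at 86.0, 86.3 and 76.9 CPM, against 77.1, 138 and 91.6 CPM. In males it stood at 90.6, 85.8 and 106.1 CPM, against 107.9, 116 and 133 CPM. The male groups do not overlap, as for 38.4% of all genes in males after Chd8 shRNA, and the female groups do. The averaged log2 fold change was −0.32 (SE 0.137, 95% interval −0.60 to −0.04, edgeR adjusted p = 0.0881), below the control mean in 6 of 6 libraries and below the control of its own number in 5 of 6. With the replicate number as a block, which paired these libraries, it passed at −0.30 (edgeR adjusted p = 0.011). With the length trend removed it passed at −0.26 (0.00964). Without nontargeting female replicate 1 it passed at −0.40 (edgeR adjusted p = 0.0333), and without nontargeting female replicate 2 it was −0.18 (0.392).

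Tbr1 and Kmt2c each had a lower averaged level when the other was depleted, without passing the test in the main fit. Tbr1 after Kmt2c shRNA stood at 35.6, 56.8 and 34.7 CPM in females, against 48.04, 70.3 and 47.7 CPM, and at 41.5, 33.5 and 38.6 CPM in males, against 51.7, 52.4 and 54.5 CPM. The male groups do not overlap, as for 13.1% of all genes in males after Kmt2c shRNA. Every library lay below the control of its number, 6 of 6. The averaged log2 fold change was −0.43 (SE 0.168, 95% interval −0.77 to −0.10, edgeR adjusted p = 0.383), in a comparison where 0.748% of all genes passed. Kmt2c after Tbr1 shRNA stood at 59.6, 54.5 and 65.9 CPM in females, against 63.8, 107.3 and 67.2 CPM. In males it stood at 85.8, 64.4 and 70.9 CPM, against 90.6, 88.2 and 104.8 CPM. It too was below the control of its number in 6 of 6. The male groups do not overlap, as for 18.2% of all genes in males after Tbr1 shRNA. The averaged log2 fold change was −0.38 (SE 0.146, 95% interval −0.68 to −0.09, edgeR adjusted p = 0.241), where 1.53% of all genes passed. Each effect passed in 0 of the 12 fits that leave out 1 library. Without nontargeting female replicate 2 Tbr1 had −0.33 (edgeR adjusted p = 0.84) and Kmt2c −0.24 (0.71). The numbers paired the libraries of both knockdowns. With the block, Tbr1 after Kmt2c shRNA passed at −0.44 (edgeR adjusted p = 0.00183), where 3.64% of all genes passed, and Kmt2c after Tbr1 shRNA passed at −0.36 (0.0275), where 8.08% passed. With the block and the length trend removed, Tbr1 had −0.43 (edgeR adjusted p = 0.00183), where 3.67% of all genes passed, and Kmt2c −0.23 (0.0168), where 8.15% passed. After Tbr1 shRNA the 413 long genes had a median of −0.11. The controls of these comparisons are the same libraries.

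**Figure D3:**
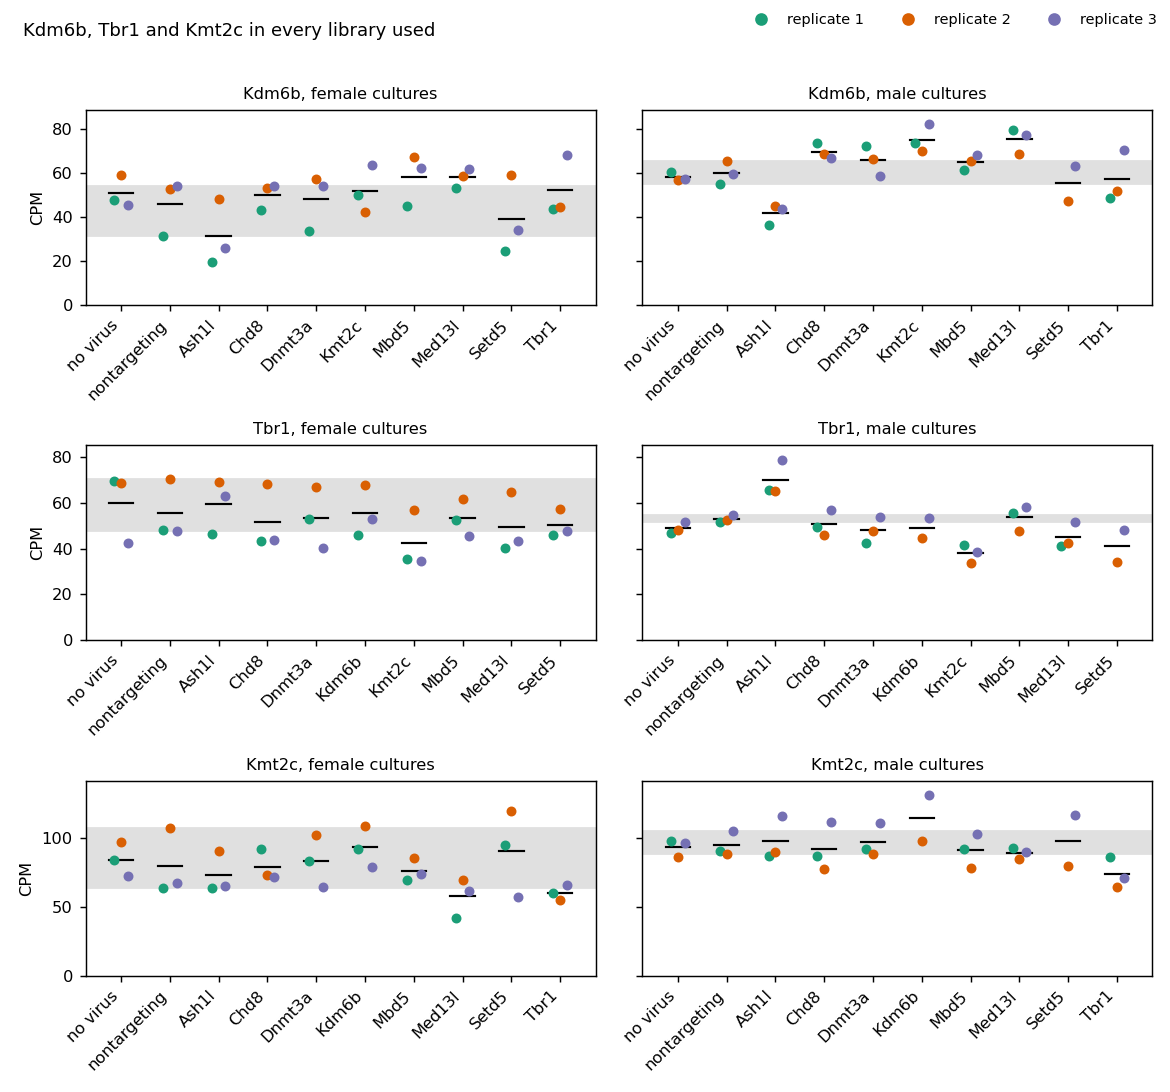
CPM of Kdm6b, Tbr1 and Kmt2c (rows) in every library used, by condition, female left and male right, with points coloured by replicate number, bars for group means and a grey band for the range of the nontargeting libraries. In males Kdm6b after Ash1l shRNA (36.3 to 44.8 CPM), Tbr1 after Kmt2c shRNA (33.5 to 41.5 CPM) and Kmt2c after Tbr1 shRNA (64.4 to 85.8 CPM) lie below the band.

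No increase passed. The highest was Kdm6b after Med13l shRNA, at 53.1, 58.7 and 61.7 CPM in females and 79.4, 68.6 and 77.2 CPM in males, above the control mean in 6 of 6 libraries. Its averaged log2 fold change was 0.33 (SE 0.193, 95% interval −0.06 to 0.72, edgeR adjusted p = 0.219). It passed in males with each sex fitted separately (edgeR adjusted p = 0.0415) and with only the libraries compared (0.0221), and averaged with the block and the length trend removed (0.42, 0.0255). The averaged effect on Kdm6b was therefore below 0 after Ash1l shRNA and above 0 after Med13l shRNA. Neither passed in the main fit, and in females both groups overlap the controls. The difference was not tested. After Ash1l shRNA, Mbd5 was at 0.26 (SE 0.131, edgeR adjusted p = 0.293) and Tbr1 at 0.25 (SE 0.167, 0.473), above the control mean in 6 of 6 and 5 of 6 libraries. With the length trend removed, Mbd5 passed at 0.31 (edgeR adjusted p = 0.0145), where 7.59% of all genes passed. Tbr1 was at −0.25 after Setd5 shRNA (SE 0.178, edgeR adjusted p = 0.473).

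Dnmt3a, Mbd5 and Med13l passed after no shRNA in the averaged comparison. Dnmt3a was below 0 in 7 of 8 averaged effects, which ran from −0.20 to 0.0034. It lay below the control of its own number in 6 of 6 libraries after Ash1l, Kmt2c, Mbd5, Med13l and Tbr1 shRNA, comparisons that share these controls. The numbers do not pair the male libraries after Ash1l and Med13l shRNA. For Dnmt3a the effect of lowest p was after Kmt2c shRNA (−0.20, SE 0.140, edgeR adjusted p = 0.934). Mbd5 ran from −0.13 to 0.26 and Med13l from −0.17 (after Ash1l shRNA, SE 0.122, edgeR adjusted p = 0.524) to 0.16. After Dnmt3a, Kdm6b, Mbd5 and Setd5 shRNA no other member passed in the averaged comparison, where 1.71%, 1.26%, 0.766% and 7.43% of all genes passed, so a count of 0 among 8 is near the background. After Setd5 shRNA, Chd8 passed with the block and the length trend removed (0.16, edgeR adjusted p = 0.0118), and Ash1l in females with the other shRNA groups added to the control (0.41, 0.0459). Their effects of lowest p were Setd5 after Dnmt3a shRNA (0.13, 95% interval −0.12 to 0.39), Chd8 after Kdm6b shRNA (0.16, −0.01 to 0.33), Kdm6b after Mbd5 shRNA (0.23, −0.16 to 0.62) and Chd8 after Setd5 shRNA (0.14, −0.03 to 0.31).

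Within a single sex no effect passed in the fit used for all groups, and several passed in other fits. In females 0 of 72 passed with edgeR, against 3% of all gene effects, and 4 had an unadjusted p under 0.05. In males 0 of 72 passed, against 2.61%, and 3 had an unadjusted p under 0.05. DESeq2 also called 0 in either sex. With the replicate block 4 passed in females and 4 in males. In females 23.4% and 29.9% of all genes passed there after Chd8 and Med13l shRNA. In males 10%, 24.7% and 26.3% passed there after Ash1l, Chd8 and Med13l shRNA. In males 5 passed with each sex fitted separately and 6 with only the libraries compared, the 3 averaged calls among them both times. With each sex fitted separately 9.17%, 23.6% and 24.9% of all male gene effects passed after Ash1l, Chd8 and Med13l shRNA. With only the libraries compared the shares were 4.53%, 22.7% and 29.1%. Nothing particular to the members is read from these counts. The study asks whether the knockdowns act differently in the sexes, and the male effect minus the female effect passed for 0 of 72 (edgeR smallest adjusted p = 0.99991), with 0 at an unadjusted p under 0.05 and 0 by DESeq2. Over all genes 0.00135% of such differences passed. The effect farthest apart by p was Med13l after Kmt2c shRNA, with a male minus female difference of 0.35 (SE 0.245, edgeR adjusted p = 0.99994). Of the 72 effects, 54 had the same sign in both sexes. The 8 effects above 0.25 in size in both sexes in the same direction included all 3 calls. The other 5 were Ash1l after Chd8, Kdm6b after Ash1l, Kdm6b after Med13l, Kmt2c after Tbr1 and Tbr1 after Kmt2c shRNA.

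**Figure D4:**
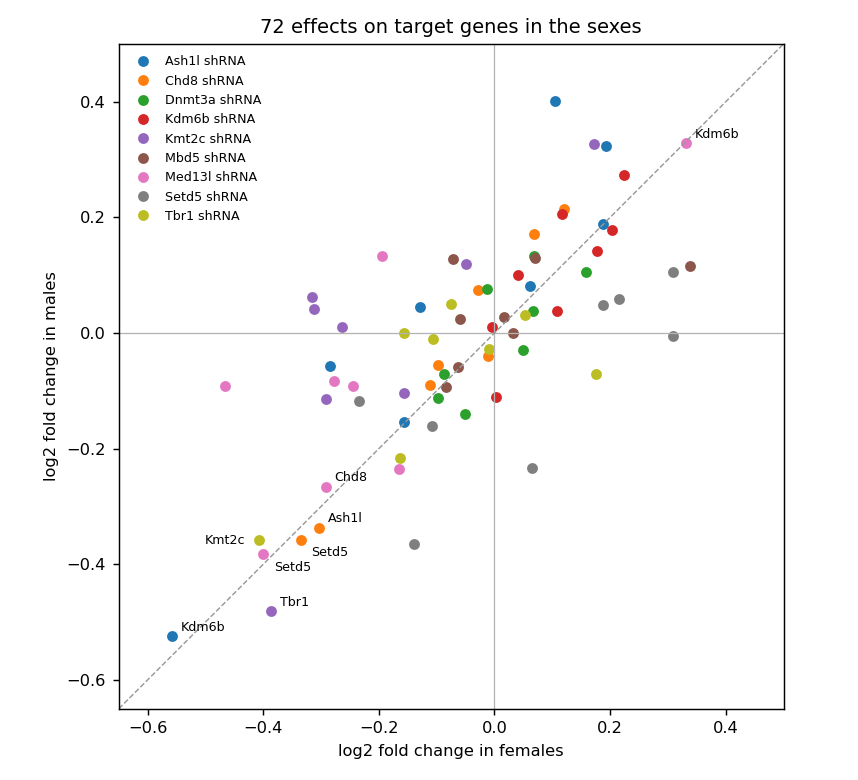
Log2 fold change of each member after each shRNA in females (x) and males (y), coloured by shRNA target, with the line of equal effects dashed. The 8 labelled points are those above 0.25 in size in both sexes in the same direction, 7 in the lower left and Kdm6b after Med13l shRNA in the upper right.

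In CPM alone, the shRNA and control libraries of a sex did not overlap in 20 effects, 5 higher and 15 lower, against 18.6% of all genes. All 20 were in males, where 25.8% of all genes did not overlap, and 0 were in females, where 11.4% did not. The male control libraries span a narrower range than the female ones for each of the 9 members.

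The members varied together from library to library. Each library's deviation from its group mean in log2 CPM was correlated between members over the 64 libraries, and the 36 pairs had r between 0.168 and 0.889 with a median of 0.625. Ash1l and Kmt2c were the closest pair. Members measured in the same library share its depth and scaling, so the r values describe the libraries. The mean deviation of the 9 members ran with the median deviation of the 4009 genes with at least 6.6 kb of exon (r = 0.951, n = 64; 0.964 in females and 0.902 in males), and less with the log2 total count (r = 0.376). In females the 11 libraries numbered replicate 2 lay between −0.056 and 0.34, and those numbered 1 between −0.38 and 0.0003. Nontargeting female replicate 2, the control library without which none of the 3 calls passed, had the highest member deviation of all, 0.34.

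**Figure D5:**
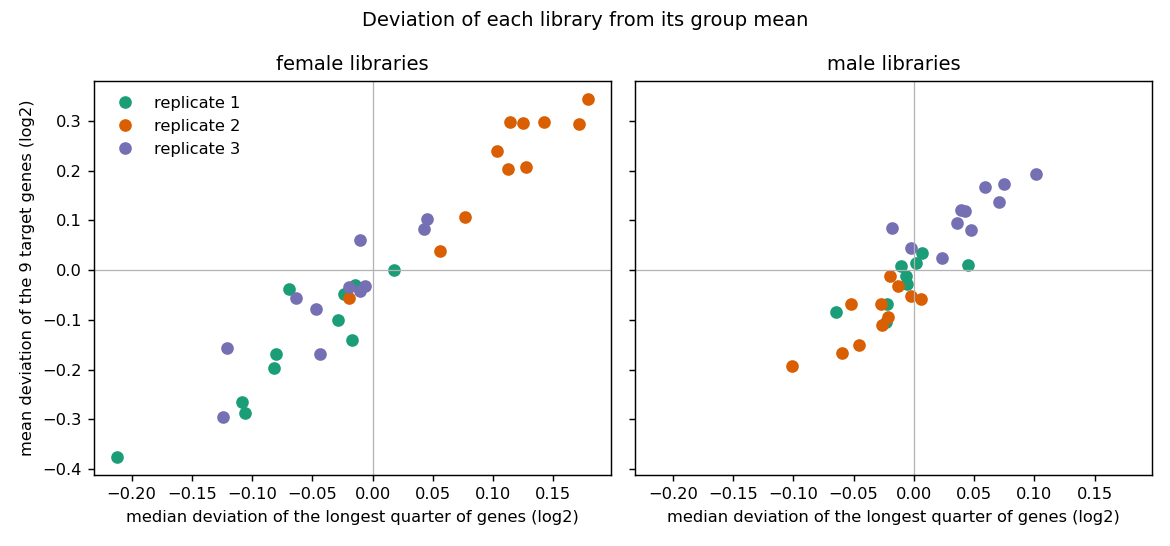
Deviation of each library from its group mean, the mean of the 9 members (y, log2) against the median of the 4009 longest genes (x, log2), female left and male right, coloured by replicate number. Points follow a rising line (r = 0.964 in females, 0.902 in males), with female replicate 2 mostly at the upper right.

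Virus alone did not move the members detectably. Between nontargeting and no virus, 0 of 18 member effects passed with edgeR or DESeq2, 0 had an unadjusted p under 0.05, and 0% of all genes passed. The 18 effects ran from −0.14 to 0.12, with 95% intervals between −0.69 and 0.59.

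Known partners and paralogues of the members were called most often after Med13l shRNA, where 24.7% of all genes passed. Of 43 such genes, 4 rose and 14 fell after Med13l shRNA, with a list median of −0.15 against −0.0031 over all genes. After Chd8 shRNA 2 rose and 2 fell, where 22.9% of all genes passed. After Setd5 shRNA 1 rose and 5 fell (7.43% of all genes), after Ash1l shRNA 3 rose (6.63%), after Dnmt3a shRNA 1 rose and 2 fell (1.71%), and after Kmt2c shRNA 2 fell (0.748%). No partner passed after Kdm6b, Mbd5 or Tbr1 shRNA. The partners called most often were Cdk19 and Med12l, which belong with Med13l to the Mediator kinase module, and Foxk2, a forkhead factor. Cdk19 fell after Med13l shRNA (−1.18, SE 0.142, edgeR adjusted p = 8.47e-09) and Kmt2c shRNA (−0.65, SE 0.14, 0.00727) and rose after Ash1l shRNA (0.465, SE 0.139, 0.0306). Med12l fell after Setd5 shRNA (−1.27, SE 0.144, edgeR adjusted p = 9.22e-09), Chd8 shRNA (−0.998, SE 0.132, 6.24e-08) and Dnmt3a shRNA (−0.58, SE 0.131, 0.00842), but was at −0.09 after Med13l shRNA. Foxk2 fell after Chd8, Med13l and Setd5 shRNA, by 0.46, 0.40 and 0.32 on the log2 scale (edgeR adjusted p = 1.01e-05, 0.000119 and 0.00931).

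Of 40 other regulators linked to autism, 1 rose and 12 fell after Med13l shRNA (list median −0.26, against −0.0031 over all genes). After Chd8 shRNA 3 rose and 6 fell (−0.06, against 0.0036). In these comparisons 24.7% and 22.9% of all genes passed. After Ash1l, Dnmt3a and Setd5 shRNA 1 fell each, and none passed after the other 4. The 413 long genes had a median of −0.28 after Med13l shRNA, with 30% called lower. The part of exon length in this list was not tested. Phf21a, a reader of unmethylated histone tails, fell after Dnmt3a (−0.42, SE 0.079, edgeR adjusted p = 0.00115), Med13l and Chd8 shRNA. Smarcc2, a BAF remodelling subunit, fell after Chd8 shRNA (−0.65, SE 0.084, edgeR adjusted p = 5e-08) and Ash1l shRNA (−0.39, SE 0.084, 0.00142). Ehmt1, a repressive histone methyltransferase, rose after Chd8 shRNA (0.60, SE 0.094, edgeR adjusted p = 2.05e-06) and fell after Setd5 shRNA (−0.31, SE 0.0998, 0.0496).

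Markers of cell types moved with some knockdowns. The 64 libraries held neuronal markers throughout, with a summed level of 641 to 1280 CPM for 7 glutamatergic genes and 897 to 2250 CPM for 7 GABAergic genes. Microglial markers were near 0 (0.117 to 3.08 CPM over 7 genes), with P2ry12 at 0 in 45 libraries and Tyrobp in 47. The summed GABAergic level was 897 to 1270 CPM after Ash1l shRNA and 1080 to 1930 CPM after Med13l shRNA, against 1750 to 2170 CPM in the controls, and 4 of 7 and 3 of 7 genes fell. After Chd8 shRNA it was 1270 to 1790 CPM, and 2 of 7 fell. Glutamatergic genes stood at 919 to 1180 CPM after Ash1l shRNA against 778 to 982 CPM, and 2 of 7 rose. After Chd8 shRNA 3 of 7 glutamatergic genes fell (672 to 922 CPM summed), and after Med13l shRNA 2 of 7 rose (712 to 1160 CPM). These counts stand beside 6.63%, 22.9% and 24.7% of all genes called after Ash1l, Chd8 and Med13l shRNA. Dividing-cell markers were at 4.09 to 5.61 CPM after Med13l shRNA against 7.24 to 12.7 CPM, and 5 of 6 fell. The part of these shifts in the members' effects was not tested.

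Over 20 group means, with the own knockdown left out, the 2 genes most like each member were found by Pearson r, as a description. Chd8 ran with Clip1 (0.966) and Lrrc7 (0.946), Setd5 with Mief1 (0.957) and Arfgef2 (0.956), and Ash1l with Tro (0.925) and Smg1 (0.904). Med13l ran with Arhgap21 (0.92) and Sestd1 (0.856), Kdm6b with Slc35f3 (0.91) and Pfkfb3 (0.9), and Kmt2c with Herc1 (0.9) and Faxc (0.899). Tbr1 ran with Auts2 (0.887) and Tbp (0.865), Mbd5 with Klf8 (0.881) and Dlg2 (0.872), and Dnmt3a with Celsr3 (0.88) and Dgkh (0.853).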

How the data were processed

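Per the labels' protocols, polyadenylated RNA was made into stranded libraries. The submitters' processing notes name STAR, featureCounts and mm10, without versions or settings. The authors deposited whole-number counts per gene, not normalized, in 1 table of 48716 rows. Rows without a symbol (18483, holding 0.69% to 1.41% of counts) were left out, and 149 repeated symbols were summed. 6 columns that belong to no sample used here were not used.

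The 64 libraries were fitted by edgeR 4.0.16 (R 4.3.3): filterByExpr, TMM scaling (factors 0.868 to 1.06), 1 mean per group, robust quasi-likelihood F test, Benjamini-Hochberg adjustment over genes per comparison at 0.05. CPM use TMM-scaled sizes. DESeq2 1.42.0 was an alternative. The scripts were tested on simulated data. The members, lists and rules were chosen with earlier results of these data known. Effects named are all calls, the effect of lowest p for each member or knockdown without a call, and further effects above 0.25 chosen after their values were seen. Of each list, the 3 genes called in most comparisons are named, and of cell type lists the sums.

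Replicate numbers come from the labels. They were taken to pair an shRNA group with its controls where, over genes, deviations of same-numbered libraries correlated above 0.1 in all 3 pairs: 8 of 9 knockdowns in females (not Kdm6b), and Chd8, Dnmt3a, Kmt2c, Mbd5 and Tbr1 in males.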

Additional observations from a re-analysis of the deposited data

How the results depend on the processing

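Of the 72 averaged effects, 3 passed. Settings chosen with the tests gave 9 with the replicate block, 7 with nontargeting and the other shRNA groups as control, 1 with only the libraries compared and 1 with the left-out libraries kept. After Med13l shRNA 43% of all genes passed with the block and 24.1% with the left-out libraries kept. With the other shRNA groups 35.6% to 35.8% passed, for the members called. The call with only the libraries compared came after Chd8 shRNA, where 23.2% of all genes passed. In females, where 0 passed, 4 passed with the replicate block, 4 with the other shRNA groups added to the control and 1 with no virus as control. In males, where 0 passed, these were 4 with the block, 3 with the other shRNA groups, 6 with only the libraries compared and 5 with each sex fitted separately, a fit that gives no averaged value. For the members called after Med13l shRNA in females, 21.7% to 23% of all genes passed with the other shRNA groups. With no virus as control the share was 12.1%. In males it was 17.4% to 17.7% with the other shRNA groups. For the remaining calls with those groups, the averaged shares were 16.1% to 17.2% after Ash1l shRNA and 34.7% to 35.1% after Chd8 shRNA. After Tbr1 shRNA the averaged share was 6.88%. In females 13.2% passed after Setd5 shRNA, and in males 7.47% passed after Ash1l shRNA. Single-sex shares with the block, with each sex fitted separately and with only the libraries compared are given above. Alternatives chosen after seeing the data gave 6 averaged, 2 female and 3 male effects with the block in females only. There 26.2% of all genes passed in females after Med13l shRNA, and 20.7% and 21.9% in males after Chd8 and Med13l shRNA. Removing the length trend gave 5 averaged and 1 male effects, in males after Chd8 shRNA, where 12% of all genes passed. The block in both sexes with the length trend removed gave 12 averaged, 3 female and 5 male effects. In that fit 25.6% and 19.2% of all genes passed in females after Chd8 and Setd5 shRNA. In males 11.5%, 26.9% and 26.3% passed there after Ash1l, Chd8 and Med13l shRNA. In these 3 fits 39.5%, 24% and 42.2% of all averaged gene effects passed after Med13l shRNA, and 35%, 25.1% and 41% after Chd8 shRNA. After Ash1l shRNA the shares were 15.7%, 7.59% and 21.1%. With the block in females only, 2.44% passed after Kmt2c shRNA. With the block and the length trend removed, 3.67%, 22.8% and 8.15% passed after Kmt2c, Setd5 and Tbr1 shRNA. The effects without overlap were 20, against 18.6% of all genes. Against no virus they were 27, and the share over all genes was not worked out there.

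The block changed calls beyond those given in the report: Kmt2c after Med13l shRNA (edgeR adjusted p = 0.0409) and Tbr1 after Ash1l shRNA (0.0381) passed with it, though the male libraries of these knockdowns are not paired by number. With only the libraries compared, Chd8 and Setd5 after Med13l shRNA had edgeR adjusted p = 0.0749 and 0.0659. Leaving out 1 library gave 0 to 5 averaged, 0 to 2 female and 0 to 0 male calls, and 0 to 0 for the sex difference and for no virus. Over these fits Setd5 after Chd8 shRNA ran from −0.42 to −0.26, Setd5 after Med13l shRNA from −0.49 to −0.30 and Chd8 after Med13l shRNA from −0.33 to −0.19. With the length trend removed, alone or with the block, Kmt2c after Med13l shRNA turned from −0.28 to 0.03 without passing either way, and Mbd5 after Med13l shRNA turned from −0.03 to 0.27 and passed. The other 11 of the 12 averaged effects above 0.25 in size kept their sign in each of the 12 settings other than leaving out 1 library. With 3 libraries per group and sex, the averaged 95% intervals reached 0.161 to 0.414 to either side, with a median of 0.278, which limits what could be called.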
